A study of Mus musculus with 12 samples.

Results

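The genes described here are the 37 mouse aminoacyl-tRNA synthetase genes of the count table, out of 32699 gene symbols. The rule that picks them reads names only: a letter for the amino acid followed by "ars" or "ars2", plus Eprs, Farsa and Farsb. That rule was set with earlier results of these data known. Names ending in 2 form the mitochondrial set of 17 genes, and the other 20 form the cytosolic set. Together they hold 94 of the table's 63759 transcripts. All 37 passed the filter on low counts, which left 19125 genes for testing.

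The study sequenced RNA of purified mouse splenic B cells, with 3 libraries in each of 4 groups. WT and KO cells were taken either unstimulated (0 hr) or after 48 hr in culture with 10 µg/ml lipopolysaccharide (LPS) and 25 ng/ml mouse IL4. LPS is a bacterial cell wall component that activates B cells through a Toll-like receptor, and IL-4 is a cytokine that supports their growth and class switching. The series is about CHD4, the ATPase of the NuRD chromatin remodelling complex, and KO marks its knockout. How and in which cells the deletion was made, and the age and sex of the mice, are not given in the sources used here. The labels do not say whether libraries came from separate animals, and every p-value below therefore reflects spread among libraries that may be no more than technical.

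An aminoacyl-tRNA synthetase joins an amino acid to its tRNA and so supplies charged tRNA to the ribosome. Most amino acids have a cytosolic enzyme and a separate mitochondrial enzyme, both encoded in the nucleus. Lysine and glycine are exceptions, since Kars and Gars each encode both forms, and mitochondrial glutaminyl-tRNA is made by an indirect route. In animal cells several cytosolic synthetases sit in a multi-synthetase complex held by the scaffold proteins AIMP1, AIMP2 and AIMP3 (Eef1e1). A B cell that leaves rest to grow and divide raises its rate of protein synthesis.

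The libraries held between 38956484 and 53189198 estimated counts each. Chd4 RNA in the libraries labelled KO overlapped that of WT at 0 hr, with 87.8 ± 15.3 CPM (counts scaled to library size) against 86.8 ± 16.5 in WT (SD, n = 3). At 48 hr Chd4 stood at 54.9 ± 18.2 CPM in the libraries labelled KO and at 107 ± 14.3 CPM in WT (edgeR quasi-likelihood, log2 fold change -0.96, adjusted p = 0.038). The genotypes also differed in sex-linked RNA, looked at after the values were seen: Xist ran from 75.4 to 293 CPM over the WT libraries and from 0.856 to 1.59 CPM over the KO libraries. Y-linked RNA was found in all libraries, with Ddx3y at 20.8 to 28.3 CPM in WT and 91.8 to 139 CPM in KO. That difference and the genotype cannot be told apart. Summed B cell markers lay between 4940 and 7990 CPM in every library, and Cd79a and Ms4a1 were among the 5 markers summed. Summed myeloid markers went from 116 to 354 CPM over the 0 hr libraries to 14.7 to 31.7 CPM over the 48 hr libraries, summed T cell markers from 14.4 to 32.7 CPM to 1.77 to 2.94 CPM, and the 3 erythroid markers tested (of 4 listed) from 122 to 1580 CPM to 3.29 to 10.7 CPM. Summed plasma cell markers, 5 genes, ran from 411 to 550 CPM in WT and 551 to 887 CPM in KO at 0 hr. At 48 hr they ran from 651 to 665 CPM and 769 to 985 CPM. The genotypes did not overlap, as held for 14.9% (0 hr) and 20.2% (48 hr) of all tested genes taken singly. At 0 hr Jchain was the largest part (mean 253 CPM in WT, 465 in KO). Sdc1 (9.19, 18.7) and Irf4 (51.2, 61.3) were also higher in KO, and Xbp1 (145, 133) and Prdm1 (5.71, 5.12) were lower. At 48 hr Xbp1 was the largest part (541, 644). None of the 6 myeloid and 6 T cell markers was at 0 in every library of a group. The part of these cells in the changes over time was not tested, and in bulk RNA fewer cells of a type and less RNA per cell cannot be told apart.

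The whole cytosolic set was higher after stimulation. No group analysed here was cultured for 48 hr without LPS and IL4, so the effects of culture and of the 2 agents cannot be told apart. In WT all 20 cytosolic genes were higher at 48 hr than at 0 hr, where 33.0% of all tested genes were called higher and 40.9% lower. In KO all 20 were again higher, with the same 33.0% of all genes called higher and 37.7% lower. The median log2 fold change of the set was 2.56 in WT and 2.64 in KO, beside medians of -0.39 and -0.30 over all tested genes. In WT 19 of the 20 rose at least 2-fold and 15 at least 4-fold. The libraries of every member stood apart between the times except those of Ears2 and Vars2 in both genotypes and of Vars, Hars2 and Mars2 in KO. That left 34 members above and 1 below in WT (34.9% and 44.9% of all genes, 79.8% in all) and 31 above and 1 below in KO (33.0% and 39.5%, 72.5% in all). The comparisons between genotypes reuse the libraries of the comparisons over time, so their values are given side by side only.

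The size of the change depends on how the libraries are scaled. In all, 73.9% of all tested genes were called in WT and 70.7% in KO. The values above rest on TMM scaling (trimmed mean of M values). Upper-quartile scaling moved the median of all genes to -1.06 in WT and -0.93 in KO, and scaling by total counts moved it to -1.28 and -1.12. The share of calls that were higher then went from 44.6% to 27.6% and 23.2% in WT, and from 46.7% to 28.8% and 24.4% in KO. The cytosolic median itself was 1.89 in WT and 2.01 in KO under upper-quartile scaling, and 1.68 and 1.83 under total-count scaling. Relative to the median of all genes under TMM, the cytosolic median was 2.95 in WT and 2.94 in KO. Called under each of 6 scalings, 17 cytosolic genes were higher in WT and 18 in KO. The exceptions were Farsa and Vars in both genotypes and Wars in WT. Scaling by total counts gave Wars a log2 fold change of 0.24 in WT (adjusted p = 0.11) and Farsa one of 0.11 in WT and 0.24 in KO (adjusted p = 0.37 and 0.058).

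Rars, the arginine enzyme of the multi-synthetase complex, had the largest change of all members in both genotypes. Its gene lies on chromosome 11 (mm10, 35808381 to 35834506, minus strand). Rars read 44.2, 52.4 and 46.8 CPM in the WT 0 hr libraries and 476, 474 and 457 CPM in the WT 48 hr libraries. The KO libraries gave 42.7, 46.1 and 53.9 CPM unstimulated and 458, 459 and 421 CPM stimulated. Every 48 hr library was far above every 0 hr library, and the 2 genotypes overlapped at both times. The log2 fold change was 3.29 ± 0.12 (SE) in WT (edgeR quasi-likelihood, adjusted p = 5.1e-11) and 3.23 ± 0.12 in KO (adjusted p = 6.2e-11).

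**Figure D1:**
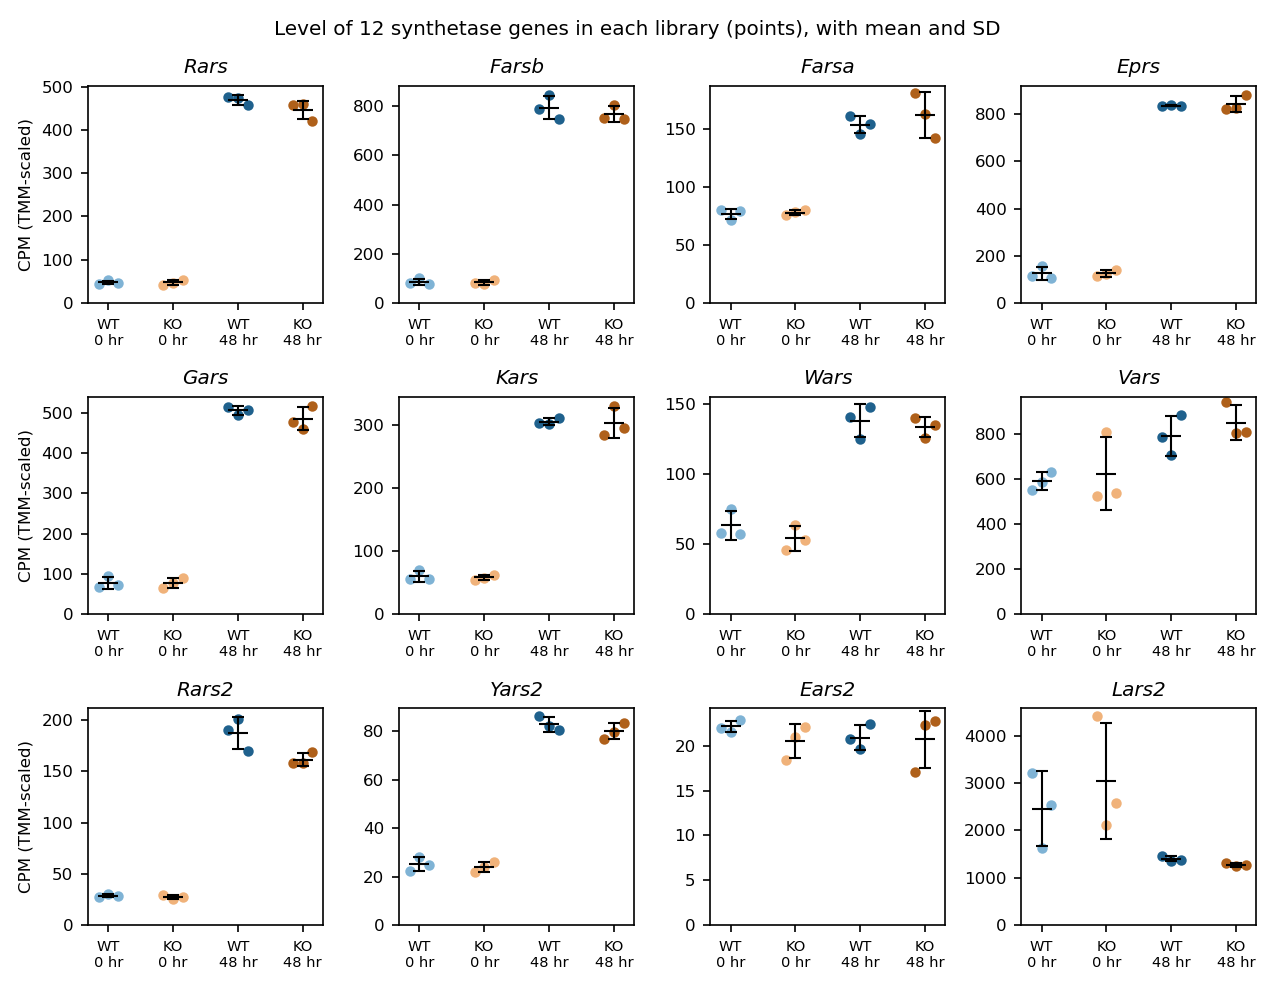
Level of 12 synthetase genes in CPM on TMM-scaled library sizes (vertical axes, each from 0), in the 4 groups of 3 libraries (points), with the mean and SD in black. Rars, Farsb, Eprs, Gars, Kars, Rars2 and Yars2 sit far higher in all 48 hr libraries, Ears2 overlaps between the times, and Lars2 is lower at 48 hr. The fitted change of Vars has the opposite sign under upper-quartile and total-count scaling.

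Phenylalanyl-tRNA synthetase is a tetramer of alpha chains (Farsa) and beta chains (Farsb), and its 2 genes changed by unlike amounts. Farsb (chromosome 1, 78417975 to 78488897, minus strand) read 80.1, 101 and 76.1 CPM in WT at 0 hr and 789, 843 and 748 CPM at 48 hr. Farsa (chromosome 8, 84856989 to 84869257, plus strand) read 79.8, 71.7 and 79.2 CPM in WT at 0 hr and 161, 146 and 154 CPM at 48 hr. For both genes the 0 hr and 48 hr libraries did not overlap. Farsb rose by 3.21 ± 0.13 on the log2 scale in WT and 3.19 ± 0.13 in KO (edgeR, adjusted p = 1.4e-10 and 1.7e-10). The change of Farsa was 1.00 ± 0.10 in WT and 1.06 ± 0.10 in KO (adjusted p = 1.1e-06 and 6.9e-07). Per length, the 2 subunit genes stood level in WT at 0 hr, at 138 ± 14.2 (Farsb) and 136 ± 15.0 (Farsa) on a scale of counts per length with a fixed sum per library (SD, n = 3). At 48 hr Farsb stood at 572 ± 8.53 and Farsa at 122 ± 10.0 on that scale, which is read only between genes at the same time.

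Among the other cytosolic genes with large changes were Aars, Dars and Tars, the alanine, aspartate and threonine enzymes. Aars read 57.4, 84.7 and 60.8 CPM in WT at 0 hr and 499, 465 and 514 CPM at 48 hr. Its log2 fold change was 2.87 ± 0.19 in WT (edgeR, adjusted p = 1.1e-08) and 2.91 ± 0.19 in KO. That of Dars was 2.86 ± 0.13 in WT and 2.87 ± 0.13 in KO, and that of Tars was 2.86 ± 0.13 and 3.08 ± 0.13. Eprs, which carries both the glutamate and the proline enzyme in 1 chain, read 113, 157 and 108 CPM in WT at 0 hr and 834, 839 and 836 CPM at 48 hr. The WT 48 hr libraries of Eprs lay within 5 CPM of each other, well above the 0 hr range. Eprs rose by 2.73 ± 0.14 in WT and 2.74 ± 0.14 in KO (adjusted p = 1.1e-09 and 1.2e-09). Gars and Kars, whose products serve cytosol and mitochondria, had log2 fold changes of 2.70 ± 0.15 and 2.35 ± 0.12 in WT and 2.66 ± 0.15 and 2.38 ± 0.12 in KO. The 8 genes of the multi-synthetase complex and the 12 outside it had medians of 2.61 and 2.55 in WT. The 10 class I and 10 class II enzymes, which differ in the fold of their catalytic domain, had cytosolic medians of 2.48 and 2.66 in WT. Eprs, with both its enzymes, was counted in class I.

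The other cytosolic genes lay between. In WT the log2 fold changes were 2.82 for Yars (tyrosine), 2.76 for Lars (leucine), 2.63 for Nars (asparagine), 2.49 for Iars (isoleucine) and 2.47 for Cars (cysteine). Mars (methionine), Hars (histidine) and Sars (serine) had 2.31, 2.21 and 1.84. In KO, Iars had 2.93, Yars 2.89, Lars 2.65, Nars 2.64, Cars 2.63, Mars 2.45, Hars 2.15 and Sars 1.83. The annotated spans of some cytosolic genes, introns included, overlap those of a neighbour. The span of Mars does so with Ddit3 (68 bases), that of Aars with Exosc6 (1326, on the same strand) and that of Wars with Wdr25 (544). Overlap of exons was not looked at, and the libraries do not record strand.

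**Figure D2:**
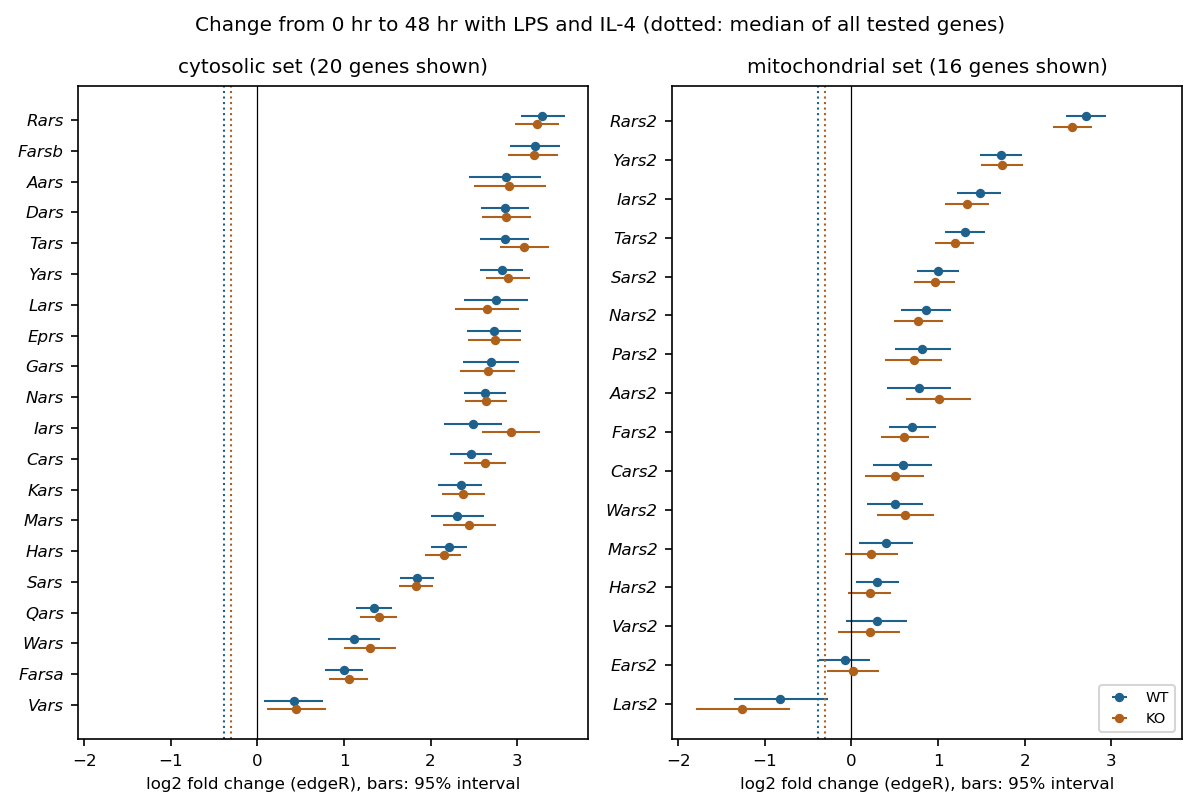
Fitted log2 fold change from 0 hr to 48 hr (horizontal axis, edgeR on TMM scale) of the 20 cytosolic and 16 of the mitochondrial genes in WT and KO, with 95% intervals and dotted lines at the medians of all tested genes. The cytosolic genes run from 0.42 (Vars) to 3.29 (Rars) in WT, and Lars2 is the lowest member. Under upper-quartile scaling Vars, Vars2, Hars2, Mars2, Cars2 and Wars2 lie below 0 in both genotypes, as does Ears2, and Fars2 does in KO.

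The tryptophan, glutamine and valine enzymes changed least among the cytosolic genes, together with Farsa. Wars, which interferon is known to induce, read 57.8, 75.2 and 57.0 CPM in WT at 0 hr and 141, 125 and 148 CPM at 48 hr. The 2 times did not overlap, and the log2 fold change was 1.12 ± 0.14 in WT and 1.30 ± 0.14 in KO (edgeR, adjusted p = 7.0e-06 and 1.7e-06). Qars had log2 fold changes of 1.35 and 1.40. Vars (chromosome 17, 35000987 to 35016322, plus strand) was already high at rest, with 549, 587 and 631 CPM in WT at 0 hr and 784, 706 and 882 CPM at 48 hr. The KO libraries of Vars gave 522, 808 and 535 CPM unstimulated and 938, 801 and 807 CPM stimulated, and there the times overlapped. Per length, Vars had the highest level of the cytosolic set at 0 hr (461 ± 56.0 in WT, against a set median of 80.8). A 31-base window moved along the processed pseudogene Gm14780 matched the GENCODE Vars transcript at 43 positions, which can overlap in a single stretch. The part of reads from such sequence in the Vars level was not tested. The log2 fold change of Vars was 0.42 ± 0.16 in WT and 0.45 ± 0.16 in KO (edgeR, adjusted p = 0.026 and 0.021).

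The call for Vars rested on single libraries and on the scaling. It was lost in WT without WT 0 hr replicate 1, WT 48 hr replicate 7 or WT 48 hr replicate 9 (adjusted p = 0.081, 0.060 and 0.099). In KO it was lost without KO 0 hr replicates 4 or 6 (both 0.081), WT 48 hr replicate 7 (0.053), KO 48 hr replicate 10 (0.080) or KO 48 hr replicate 11 (0.055), and in a fit of the 6 KO libraries alone (0.068). With only genes of at least 1 CPM in 3 libraries it was 0.27 in WT and 0.26 in KO (adjusted p = 0.14 and 0.16), and under upper-quartile scaling -0.25 and -0.18 (0.15 and 0.30). Total-count scaling called Vars lower in WT (-0.46, adjusted p = 0.021) and gave -0.37 in KO (0.059).

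The mitochondrial set changed less and less evenly. In WT 14 of 17 genes were higher at 48 hr, 1 was lower (Lars2), and Ears2 and Vars2 were not called. In KO 12 were higher, Lars2 was lower, and Ears2, Vars2, Hars2 and Mars2 were not called. Over all tested genes 33.0% were called higher in each genotype, and 40.9% (WT) and 37.7% (KO) lower. The median log2 fold change was 0.78 in WT and 0.72 in KO, or 1.17 and 1.02 relative to the median of all genes. That median was 0.10 in WT and 0.09 in KO under upper-quartile scaling, and it turned to -0.11 and -0.10 under total-count scaling. Only Lars2 lay below the median of all genes in either genotype. Under upper-quartile scaling 6 mitochondrial genes were higher and 4 lower in WT, and 6 higher and 5 lower in KO. Under total-count scaling the counts were 5 and 6 in WT and 5 and 5 in KO. Of all 19125 tested genes, upper-quartile scaling called 15124 in WT and 14712 in KO, with 72.4% and 71.2% of those calls lower. Total-count scaling called 15528 and 15001 of all genes, with 76.8% and 75.6% of those calls lower. Rars2, Yars2, Iars2 and Tars2 were among those called higher under each of the 6 scalings in both genotypes.

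Rars2, the mitochondrial arginine enzyme, had the largest change of its set, as Rars had in the cytosolic set. Rars2 (chromosome 4, 34614957 to 34660167, plus strand) read 27.4, 30.6 and 27.9 CPM in WT at 0 hr and 191, 201 and 170 CPM at 48 hr. The KO libraries gave 29.2, 25.6 and 27.7 CPM unstimulated and 158, 158 and 169 CPM stimulated. The times were far apart in both genotypes, with log2 fold changes of 2.71 ± 0.11 and 2.55 ± 0.10 (edgeR, adjusted p = 9.5e-11 and 1.4e-10). Yars2, Iars2 and Tars2, the tyrosine, isoleucine and threonine enzymes, had changes of 1.73, 1.48 and 1.31 in WT and 1.74, 1.34 and 1.20 in KO.

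The middle of the mitochondrial set moved by about 2-fold or less. In WT the values were 1.00 for Sars2 (serine), 0.86 for Nars2 (asparagine), 0.82 for Pars2 (proline), 0.78 for Aars2 (alanine), 0.70 for Fars2 (phenylalanine), 0.59 for Cars2 (cysteine) and 0.50 for Wars2 (tryptophan). In KO they were 0.96, 0.77, 0.72, 1.01, 0.61, 0.50 and 0.62 in the same order. Relative to total counts none of these 7 was called higher, and Wars2 was lower in WT (-0.39, adjusted p = 0.043). At 1 CPM or more in 3 libraries the calls of Wars2 in WT (0.35, adjusted p = 0.051) and of Cars2 in KO (0.32, adjusted p = 0.066) were lost.

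At the other end, Ears2, the mitochondrial glutamate enzyme, read 22.0, 21.6 and 22.9 CPM in WT at 0 hr and 20.8, 19.6 and 22.4 CPM at 48 hr. The times overlapped in both genotypes, and the log2 fold change was -0.08 ± 0.14 in WT and 0.02 ± 0.14 in KO (edgeR, adjusted p = 0.61 and 0.91). Ears2 was called lower under upper-quartile scaling (-0.76 in WT and -0.61 in KO, adjusted p = 0.00015 and 0.00091) and under total-count scaling (-0.97 and -0.80, adjusted p = 2.4e-05 and 0.00015). Vars2 had 0.29 ± 0.16 in WT (adjusted p = 0.12), which passed the threshold without WT 0 hr replicate 3 (0.43, adjusted p = 0.049), with DESeq2 (0.38, 0.031) and with relative log expression (RLE) scaling (0.38, 0.043). Upper-quartile and total-count scaling called Vars2 lower instead, in WT (-0.39 and -0.60, adjusted p = 0.037 and 0.0058) and in KO (-0.42 and -0.61, adjusted p = 0.026 and 0.0057). Hars2 had 0.30 ± 0.12 in WT (adjusted p = 0.033). That call was lost without WT 0 hr replicate 2 (0.056), WT 0 hr replicate 3 (0.12) or WT 48 hr replicate 7 (0.083), without a low-count filter (0.059) and at 1 CPM or more in 3 libraries (0.24). In KO, Hars2 had 0.21 (adjusted p = 0.12) and passed without KO 0 hr replicate 6 (0.31, adjusted p = 0.040) and with DESeq2 (0.25, adjusted p = 0.047). Under the same 2 scalings Hars2 was called lower in WT (-0.38 and -0.59, adjusted p = 0.0073 and 2.0e-04) and in KO (-0.42 and -0.60, adjusted p = 0.0041 and 0.00018). Mars2 had 0.40 ± 0.14 in WT (adjusted p = 0.023), lost without WT 0 hr replicate 3 (0.084), WT 48 hr replicate 7 (0.052) or WT 48 hr replicate 9 (0.064), and at 1 CPM or more in 3 libraries (0.24, adjusted p = 0.12). Those scalings gave Mars2 values of -0.28 and -0.49 in WT (adjusted p = 0.088 and 0.0057) and of -0.40 and -0.59 in KO (adjusted p = 0.021 and 0.0018). Hars and Hars2 start head to head on chromosome 18 and their annotations overlap by 198 bases, so reads there cannot be assigned by strand in these libraries.

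Lars2, the mitochondrial leucine enzyme (chromosome 9, 123366927 to 123462666, plus strand), had the highest level of all members at 0 hr. It read 3220, 1630 and 2530 CPM in WT at 0 hr and 1460, 1360 and 1380 CPM at 48 hr. The KO libraries gave 4430, 2120 and 2580 CPM unstimulated and 1320, 1240 and 1260 CPM stimulated. All 48 hr libraries were below all 0 hr libraries, and the 0 hr libraries were widely spread. The log2 fold change was -0.82 ± 0.25 in WT and -1.26 ± 0.25 in KO (edgeR, adjusted p = 0.010 and 0.00058). Without WT 0 hr replicate 1 the WT value was -0.57 (adjusted p = 0.064). Per length in WT at 0 hr, Lars2 stood at 2060 ± 704, while the other 16 mitochondrial genes ran from 5.09 (Mars2) to 53.0 (Tars2). At 48 hr Lars2 had rank 3 on that scale in both genotypes. It stood at 518 in WT, below Dars (745) and Farsb (572), and at 498 in KO, below Dars (857) and Farsb (587). The place of Dars above Lars2 in WT depends on the length taken for Dars, 1410 bases here against 2175 for its longest coding transcript.

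The Lars2 counts moved with those of another row of the table, AK155692, a cDNA clone name that was chosen after its values were seen. AK155692 read 9240, 5000 and 7910 CPM in WT at 0 hr and 3950, 3700 and 3550 CPM at 48 hr, and the Lars2 count was between 30.7% and 41.7% of its count in every library. AK155692 changed by -0.98 on the log2 scale in WT and -1.56 in KO (edgeR, adjusted p = 0.0058 and 0.00023). Rn45s, the ribosomal RNA precursor, had values of 0.02 in WT and -0.32 in KO (adjusted p = 0.92 and 0.13). Of the Lars2 counts, at least 99.8% in each library were given to 1 of its 2 transcripts. The GENCODE Lars2 transcript shares sequence with 2 other annotated genes, AA474408 and Gm15564, neither of which is a row analysed here. A moving 31-base window matched at 26 positions in AA474408 and 22 in Gm15564, and such positions can overlap in a single stretch. The part of reads from such sequence in the Lars2 level was not tested.

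Set against each other within a library, the cytosolic gene gained on its mitochondrial partner for nearly every amino acid. This ratio of counts per length does not depend on how libraries are scaled. Of 18 pairs of a cytosolic and a mitochondrial gene for the same amino acid, 14 are simple partners and 4 involve Eprs, Farsa or Farsb. In 16 of the 18, every 48 hr library had a higher ratio than every 0 hr library, and the exceptions were Vars to Vars2 and Farsa to Fars2. In all 18 the fitted change of the cytosolic gene was the larger in WT and in KO. No test was run on the ratios, and pairs that share Eprs or Fars2 are not independent.

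The ratio of Eprs to Ears2 was 1.97 to 3.04 over the 0 hr libraries and 15.4 to 20.1 over the 48 hr libraries. Aars to Aars2 ran from 1.75 to 3.74 at 0 hr and from 8.60 to 10.1 at 48 hr, and Mars to Mars2, the methionine pair, from 8.20 to 15.0 and from 44.1 to 61.6. Yars to Yars2, the tyrosine pair, was 0.651 to 0.821 at 0 hr and 1.51 to 1.75 at 48 hr. Whether this pair crosses 1 depends on the length taken for Yars2, 1574 bases here against 2805 for its longest coding transcript. The arginine pair, whose members both rose strongly, moved little, from 1.29 to 1.72 at 0 hr to 2.09 to 2.58 at 48 hr. For the valine pair the ranges were 25.8 to 39.3 and 30.0 to 44.1, which overlap. Lars to Lars2 was 0.0123 to 0.0446 at 0 hr and 0.288 to 0.371 at 48 hr, and it carries the Lars2 level described above.

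**Figure D3:**
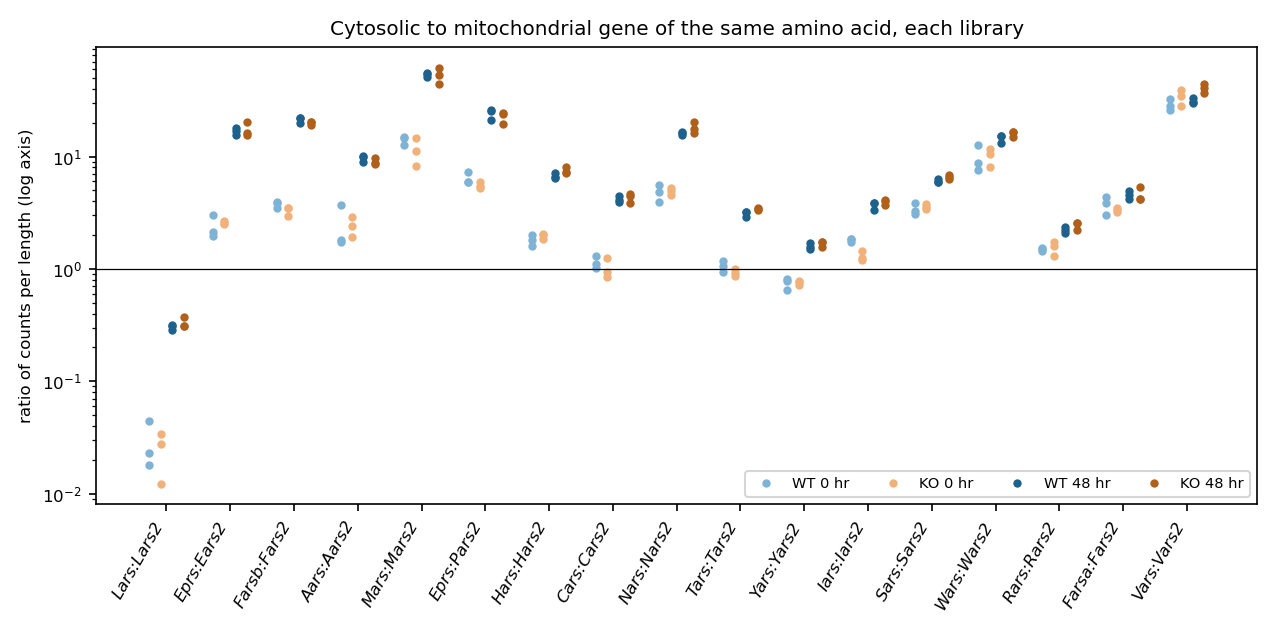
Ratio of counts per length of the cytosolic to the mitochondrial gene for the same amino acid (log axis), each point a library, coloured by group, with 17 pairs shown, ordered by the difference of their WT changes. For all pairs shown but Farsa to Fars2 and Vars to Vars2 the 48 hr libraries lie above the 0 hr libraries, as for Eprs to Ears2 at 15.4 to 20.1 against 1.97 to 3.04.

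Promoters are shown because 5 of the cytosolic genes share a short motif near the start site. The whole cytosolic set rose, so no cytosolic genes without a rise stand beside them. RefSeq promoter windows (GRCm38.p6, 250 bases before to 50 after the start) were matched for 27 of the 37 genes, 13 cytosolic and 14 mitochondrial. Both strands were searched for TGATGNAA, the core of the CCAAT-enhancer and ATF response element bound by ATF4, and for CACGTG, the E-box bound by MYC with MAX. The motifs do not overlap each other in sequence. TGATGNAA, or its reverse, was found for 5 of 13 cytosolic genes (Aars, Gars, Iars, Tars and Yars) and 0 of 14 mitochondrial genes. It was in 3.97% of all 32851 promoter windows. A gene counts if any of its windows holds the motif, while the shares over all count single windows. CACGTG was found for 4 of 13 cytosolic genes (Aars, Farsb, Iars and Tars) and 1 of 14 mitochondrial genes (Ears2), and in 7.15% of all windows. Before the start site alone the first motif was found for 3 cytosolic genes and in 3.45% of all windows. The second was then found for 3 cytosolic genes and no mitochondrial gene, and in 6.02% of all windows. Each 30-base window below, shown for 4 of the 5 genes, has the TGATGNAA match, or its reverse complement, in capitals and reads 5′ to 3′ along the gene.
Gars, chr6:55037960-55037989, plus strand: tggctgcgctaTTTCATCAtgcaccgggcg
Iars, chr13:49682126-49682155, plus strand: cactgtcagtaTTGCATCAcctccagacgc
Tars, chr15:11399655-11399684, minus strand: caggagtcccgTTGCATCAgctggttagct
Yars, chr4:129189895-129189924, plus strand: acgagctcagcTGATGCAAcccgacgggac
The match begins 30 and 15 bases before the start in Gars and Tars, and at bases 8 and 4 after it in Iars and Yars.

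The 5 genes with TGATGNAA had WT log2 fold changes of 2.87 (Aars), 2.70 (Gars), 2.49 (Iars), 2.86 (Tars) and 2.82 (Yars), all within the range of the cytosolic set. Rars, with the largest change, had no promoter entry in the table. A match describes letters and does not show binding, and its part in the changes was not tested.

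The genes that act beside the synthetases, and those of the amino acid response and the MYC network further below, were taken from lists. These lists were drawn up with earlier results of these data known. Beside the counts below, 33.0% of all tested genes were called higher in each genotype, and 40.9% (WT) and 37.7% (KO) lower. The 3 scaffolds of the multi-synthetase complex all rose in both genotypes. Eef1e1 read 31.9, 29.3 and 25.6 CPM in WT at 0 hr and 302, 331 and 261 CPM at 48 hr, a log2 fold change of 3.37 in WT and 3.12 in KO. Aimp1 and Aimp2 had 2.46 and 2.72 in WT and 2.23 and 2.51 in KO. All 8 cytosolic elongation and termination factors were higher in both genotypes, with a WT median of 1.89 and the largest value, 3.19, for the release factor Etf1. Of 13 mitochondrial translation factors, 13 were higher in WT and 11 in KO, with medians of 1.25 and 1.31. Mrrf, the mitochondrial ribosome recycling factor, had the largest change of that list at 2.54 in WT. Among 26 genes of tRNA maturation, 25 were higher in WT and 24 in KO, and none was lower. Of 7 synthetase-like and editing genes 6 were higher in WT and 7 in KO, led by Aarsd1 at 1.80 and 1.83.

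Of 29 genes of the amino acid response, many of them known ATF4 targets, 22 were higher and 3 lower at 48 hr in each genotype. Over all tested genes 33.0% were higher in each genotype, and 40.9% (WT) and 37.7% (KO) lower. Atf4 itself read 106, 82.8 and 107 CPM in WT at 0 hr and 235, 236 and 226 CPM at 48 hr. The times did not overlap, and the change was 1.24 ± 0.15 in WT and 1.09 ± 0.15 in KO (edgeR, adjusted p = 5.6e-06 and 2.0e-05). Asns, asparagine synthetase, which makes the amino acid that Nars joins to tRNA, read 2.70, 4.53 and 2.79 CPM in WT at 0 hr and 259, 276 and 259 CPM at 48 hr. Its log2 fold change was 6.31 in WT and 6.47 in KO. Cth, cystathionine gamma-lyase, had the largest change of the list at 7.69 in WT and 7.60 in KO. Not all of the list moved this way: Slc7a11, the cystine transporter, was lower at 48 hr, with -1.84 in WT and -0.69 in KO. Of 7 genes of the MYC network 2 were higher and 3 lower in WT, and 2 higher and 5 lower in KO. The WT counts of this list are close to the shares over all genes. Myc had 1.80 and 1.73, and Mxd4, which pairs with MAX against MYC, had -2.04 and -1.94.

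Transcripts of a gene did not always move together. Of the 37 members 27 had several transcripts in the table, and for 8 of them the share of the leading transcript had a median at 48 hr more than 10 percentage points from that at 0 hr. How often this held over all genes with several transcripts was not counted. For Farsa the leading transcript (uc009mnu.2) took 47.0% to 65.6% of the gene's counts over the 6 libraries at 0 hr and 80.4% to 89.4% over the 6 at 48 hr. The ranges did not overlap. Tested as a feature of its own, that Farsa transcript had a log2 fold change of 1.75 ± 0.14 in WT (edgeR, adjusted p = 2.1e-06), while uc009mnr.2 had -1.58 ± 0.25 (adjusted p = 0.00032). For Qars the leading transcript (uc009rpy.2) went from between 40.5% and 70.3% at 0 hr to between 76.2% and 83.0% at 48 hr. It had 1.91 ± 0.22 in WT and uc009rpz.2 had -1.81 ± 0.27 (adjusted p = 3.5e-05 and 0.00021). Farsa and Qars thus each had transcripts called in both directions in WT, as did Iars2, Sars, Sars2, Tars2 and Vars. The part of this in the size of the gene changes was not tested.

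Tars2 and Iars2 behaved alike in direction. The leading Tars2 transcript took 67.1% to 79.2% at 0 hr and 88.2% to 91.8% at 48 hr, and the leading Iars2 transcript 79.8% to 92.0% and 97.8% to 98.9%. In Eprs and Kars the shares overlapped between times, at 43.0% to 55.1% and 48.7% to 53.4% for Eprs and 84.1% to 89.5% and 85.8% to 89.2% for Kars. Of 90 member transcripts tested, 51 were higher and 13 lower in each genotype, beside 24.7% higher and 27.8% lower of all 36629 transcripts tested in WT (52.5% in all) and 23.8% and 26.0% in KO (49.8% in all). Transcripts called in both directions were found in 7 genes in WT and 8 in KO. The share of such genes among all genes with several transcripts was not counted, so this is not shown to be particular to the members. Salmon, the authors' tool, shares reads among similar transcripts, so these splits are estimates.

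**Figure D4:**
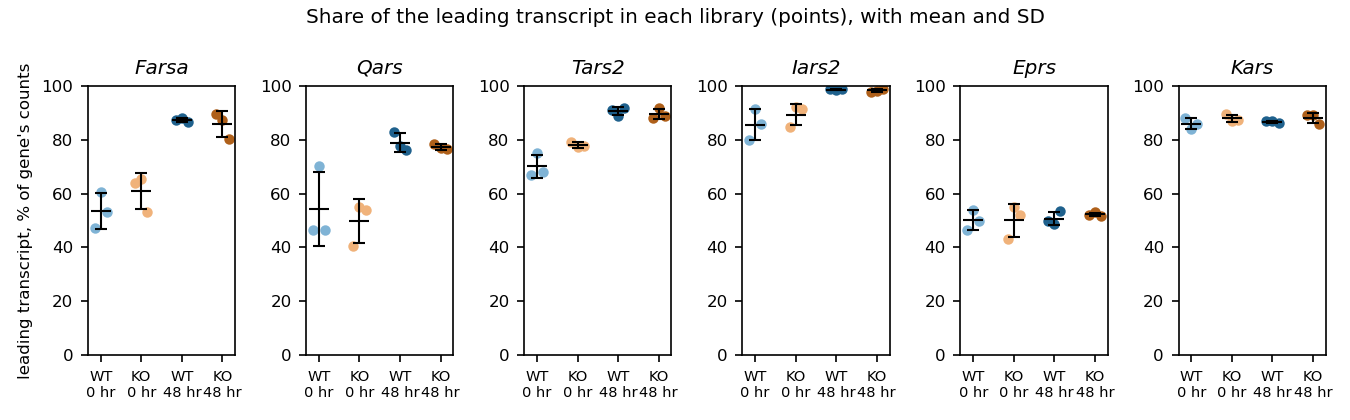
Share of a gene's counts given to its leading transcript (percent, axis from 0 to 100) in each library, with mean and SD per group. The shares of Farsa, Qars, Tars2 and Iars2 are higher at 48 hr (80.4% to 89.4% for Farsa, against 47.0% to 65.6% at 0 hr), and those of Eprs and Kars overlap between times.

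Between the genotypes no synthetase gene was called at either time. At 0 hr 0 of 37 members passed in edgeR, where 1.11% of all tested genes did (0.68% higher and 0.429% lower in KO), and Iars alone had an unadjusted p under 0.05 (0.041). At 48 hr again 0 of 37 passed, beside 2.02% of all genes (1.47% higher and 0.544% lower), and Rars2 alone had an unadjusted p under 0.05. With DESeq2, 0 members were called at both times and 3 at each had an unadjusted p under 0.05. Of all 19125 genes DESeq2 called 645 at 0 hr and 1069 at 48 hr. With limma-voom 0 members were called and 1 at each time had an unadjusted p under 0.05, beside 236 and 193 of all genes called. The median KO minus WT difference over members was -0.02 at 0 hr and -0.01 at 48 hr, beside 0.00 and 0.01 over all genes. Leaving out any of the 12 libraries also gave 0 calls among the members. Those fits called 79 to 426 of all tested genes at 0 hr and 136 to 1080 at 48 hr.

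The intervals limit how large a missed difference could be. At 0 hr the 95% intervals of all 37 members lay between -0.64 (Iars) and 0.84 (Lars2), and at 48 hr between -0.67 (Lars2) and 0.48 (Aars2), so none reached a 2-fold difference. Rars read much the same in both genotypes at 48 hr, with a difference of -0.07 and an interval from -0.30 to 0.16. For Eprs the differences were 0.00 (interval -0.29 to 0.29) at 0 hr and 0.01 (-0.28 to 0.30) at 48 hr. Gars had -0.02 and -0.06, Kars -0.04 and -0.01, and Wars -0.23 and -0.04. Lars2 had 0.31 at 0 hr, which became -0.07 without KO 0 hr replicate 4, and -0.14 at 48 hr.

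**Figure D5:**
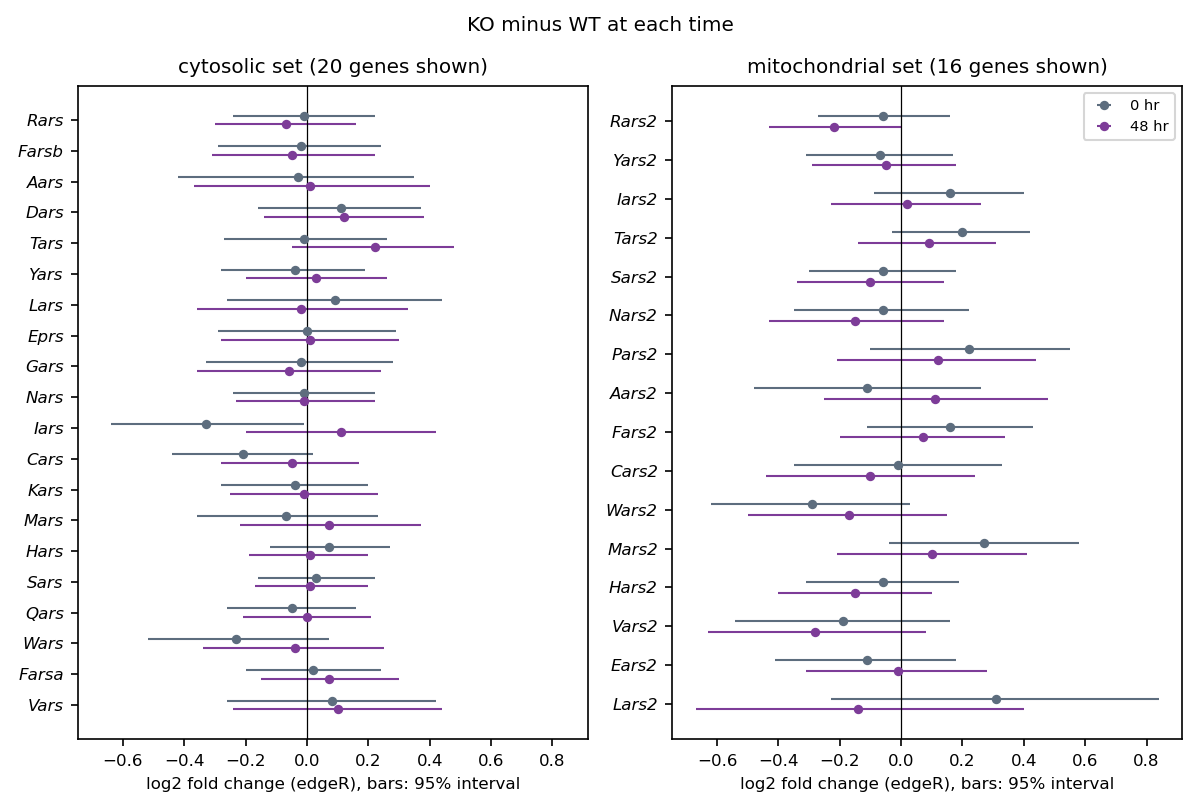
Fitted log2 difference, KO minus WT (horizontal axis, edgeR on TMM scale), of 36 members at 0 hr and at 48 hr, with 95% intervals. All points lie between -0.33 (Iars, 0 hr) and 0.31 (Lars2, 0 hr). No member passed the threshold, and values near 0, such as those of Eprs, Gars and Kars, change sign under other scalings or without single libraries.

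Differences between genotypes are given for the members with the lowest p in each direction and a few others. Iars, the isoleucine enzyme, read 62.8, 85.4 and 72.2 CPM in WT and 46.9, 68.8 and 60.1 CPM in KO at 0 hr. The groups overlapped, and the difference was -0.33 ± 0.14 (edgeR, adjusted p = 0.43). Cars, the cysteine enzyme, had -0.21 (adjusted p = 0.52), Mars2 0.27 (0.55) and Tars2 0.20 (0.55) at 0 hr, and Wars2 and Pars2 had -0.29 (0.53) and 0.22 (0.70). At 48 hr Rars2 had the lowest p of the members, with a difference of -0.22 ± 0.10 (unadjusted p = 0.047, adjusted p = 0.34). Vars2 had -0.28 (adjusted p = 0.49), Tars 0.22 (0.46), Wars2 -0.17 (0.67) and Dars 0.12 (0.73) at 48 hr. Tars read 515, 494 and 508 CPM in WT and 583, 639 and 543 CPM in KO at 48 hr, without overlap.

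Groups without overlap were counted too. At 0 hr 2 of 37 members did not overlap between genotypes (Cars lower and Mars2 higher in KO), where 14.9% of all tested genes did not (7.92% lower and 7.02% higher). At 48 hr 8 of 37 did not, which is close to the 20.2% of all genes that did not. Among them Dars and Tars were higher in KO (10.7% of all genes), and 6 were lower, Lars2 and Rars2 among them. These 6 of 37 members stand against 9.53% of all genes without overlap and lower in KO. All 6 are among the 17 mitochondrial genes. That split by set was not tested, and none of the 6 was called. Tested as separate transcripts, 1 transcript of Wars2 (uc012cur.1) was called at 48 hr (adjusted p = 0.028), lower in KO, beside 0.139% of all transcripts called lower, 0.202% called higher and 0.341% in all. It took 4.67%, 7.68% and 4.90% of the Wars2 counts in WT and had 0 counts in the 3 KO libraries.

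The interaction, which asks whether the change over time differs between genotypes, was called for 0 of 37 members, beside 0.115% of all genes. No member had an unadjusted p under 0.05 in edgeR or DESeq2, and 1 did in limma-voom. Iars had the lowest adjusted p at 0.58, with a difference of 0.44 (95% interval 0.00 to 0.88). Tars had 0.23, Rars2 -0.16 and Lars2 -0.44 (interval -1.20 to 0.32). Of the neighbouring lists, Adat2, a subunit of the tRNA adenosine deaminase, was called at 0 hr, with 1.30, 1.17 and 0.966 CPM in WT and 3.23, 2.11 and 3.32 CPM in KO (log2 difference 1.33, adjusted p = 0.0091). Slc7a11 was called at 48 hr, with 3.22, 2.78 and 3.53 CPM in WT and 5.74, 7.18 and 7.93 CPM in KO (1.13, adjusted p = 0.0066). No other gene of the scaffold, elongation, mitochondrial factor, tRNA maturation, synthetase-like, amino acid response or MYC lists was called between genotypes.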

How the data were processed

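The deposited table holds 1 estimated count per transcript and library, in whole numbers, for 63759 transcripts. Tools listed in the submitters' processing notes are Salmon 0.8.2, Trimmomatic 0.36, bcl2fastq 2.20.0.422 and DESeq2 1.14.1, with build mm10. The RNA was amplified by SMART-Seq, per the labels' protocols, a chemistry that does not record strand. Transcript counts were summed to 32699 trimmed gene symbols (344 names had trailing spaces), no column fell outside the series, and 19125 genes passed filterByExpr.

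Libraries were scaled by TMM (factors 0.723 to 1.42) and all 12 entered a single quasi-likelihood fit of the 4 groups without covariates (edgeR 4.0.16, R 4.3.3). Benjamini-Hochberg adjustment covered all 19125 genes, with calls below 0.05. CPM uses TMM-scaled library sizes. The script was tested on simulated data. Alternatives were DESeq2 1.42.0, limma 3.58.1 (voom), other scalings and filters, the 6 libraries of a contrast, single transcripts and each library left out. Total-count scaling was added after the values were seen.

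The table's transcript names have no lengths in the reference, so counts per length use the mean length of the coding transcripts that GENCODE M21 pairs with RefSeq, not a count-weighted length as planned. Positions are GENCODE M21 on mm10, and promoters are RefSeq on GRCm38.p6. Figures were drawn with matplotlib 3.10.9.

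The members and lists were chosen with earlier results of these data known. Members named with statistics over time were, per set, the 5 called with the largest and the 3 with the smallest change. Between genotypes they were those called and the 2 with the lowest p in each direction. Wars, Gars, Kars, Eprs and Lars2 were named throughout, and outside the members Chd4, Atf4, Asns, the list genes called between genotypes and the extreme gene of a list. Other names carry values only, and some items that meet these rules are not reported here.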

Additional observations from a re-analysis of the deposited data

How the results depend on the processing

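No paired analysis was possible because the replicate numbers run from 1 to 12 and no group shares a number with another. The counts of members called were within 1.5 times of the reported counts in every alternative except those printed here, and the cytosolic count higher over time was 17 to 20 throughout. Under total-count scaling 1 cytosolic gene, Vars, was called lower in WT. Mitochondrial genes higher over time numbered 6 in WT and 6 in KO under upper-quartile scaling and 5 and 5 under total-count scaling, and those lower 4 and 5, and 6 and 5. Of the calls over all genes, 72.4% (WT) and 71.2% (KO) were lower under upper-quartile scaling. Under total-count scaling 76.8% and 75.6% were lower. Leaving out single libraries gave 0 to 1 lower mitochondrial genes in WT. As single transcripts, 1 member (Wars2) was called between genotypes at 48 hr. The cause of these shifts was not tested.

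Signs changed for small values. Under upper-quartile and total-count scaling, Vars had -0.25 and -0.46 in WT and -0.18 and -0.37 in KO over time, Vars2 -0.39 and -0.60 in WT and -0.42 and -0.61 in KO, and Hars2 -0.38 and -0.59 in WT and -0.42 and -0.60 in KO. Ears2 had 0.01 in WT with DESeq2 and with RLE scaling. In KO, Ears2 had -0.61 under upper-quartile scaling, -0.80 under total-count scaling, -0.16 at 1 CPM or more in 3 libraries, -0.02 in the 6 KO libraries, and -0.08 to 0.15 with single libraries left out. At 48 hr between genotypes Eprs had -0.05 (DESeq2, RLE) and -0.02 (1 CPM filter), and Kars 0.01 (upper-quartile) and 0.02 (total-count). In the interaction Eprs had -0.04 (DESeq2, RLE), -0.01 (limma-voom) and -0.02 (1 CPM filter), Kars -0.02 (DESeq2, RLE), and Gars 0.03 (total-count). With single libraries left out, values at 0 hr between genotypes ran from -0.14 to 0.15 for Gars, -0.10 to 0.08 for Kars and -0.07 to 0.55 for Lars2. At 48 hr they ran from -0.05 to 0.03 for Eprs and -0.13 to 0.04 for Kars, and in the interaction from -0.18 to 0.11 for Eprs, -0.21 to 0.08 for Gars and -0.09 to 0.09 for Kars.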
